A study of Homo sapiens with 8 samples.

Results

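PKM is the human gene for muscle-type pyruvate kinase, and its primary transcript contains a pair of mutually exclusive exons, 9 and 10. The members were the splice junctions of PKM (ENSG00000067225.17, chromosome 15, minus strand, hg38), found by coordinate in the junction files of all 8 libraries and assigned with GENCODE release 29. PKM is 1 of 21212 genes with reads over introns that belong to a single gene. Across the libraries 70 PKM junctions were listed, of which 26 are annotated and 44 are not. The cells were K562, an established human erythroleukaemia line that the labels describe as epithelial. They carried the splicing factor SF3B1 with the K700E substitution or as wild type, and were sampled at day 8 and day 4. There were 2 libraries each of K700E at day 8, wild type at day 8, K700E at day 4 and wild type at day 4, all of total RNA. The note on treatment, that the modified allele was induced with doxycycline at 1 µg/ml, is the same for every library, wild type included.

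Pyruvate kinase catalyses the last step of glycolysis, in which phosphoenolpyruvate and ADP give pyruvate and ATP. Messages with exon 9 encode the M1 enzyme, which is constitutively active and prevails in skeletal muscle, heart and brain. Messages with exon 10 encode the M2 enzyme, whose activity is regulated by fructose bisphosphate and by phosphotyrosine proteins and which prevails in embryonic, proliferating and tumour cells. The repressors PTBP1, HNRNPA1 and HNRNPA2B1 bind around exon 9 and favour exon 10. SF3B1 belongs to the U2 snRNP, which recognises the branch point upstream of the 3′ splice site (acceptor), and K700E is known for opening cryptic acceptors a short way upstream of the normal ones.

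The sequences of both exons are shown because all counts below rest on telling them apart. Each is 167 bases long, on the minus strand of hg38, read from GENCODE release 29 transcripts. Capitals mark the 62 bases at which they differ, position by position.
exon 9 (chr15:72203022-72203188): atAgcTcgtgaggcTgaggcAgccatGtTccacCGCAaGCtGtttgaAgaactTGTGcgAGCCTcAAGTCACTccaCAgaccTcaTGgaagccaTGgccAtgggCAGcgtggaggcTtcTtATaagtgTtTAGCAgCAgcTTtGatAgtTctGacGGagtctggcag
exon 10 (chr15:72202454-72202620): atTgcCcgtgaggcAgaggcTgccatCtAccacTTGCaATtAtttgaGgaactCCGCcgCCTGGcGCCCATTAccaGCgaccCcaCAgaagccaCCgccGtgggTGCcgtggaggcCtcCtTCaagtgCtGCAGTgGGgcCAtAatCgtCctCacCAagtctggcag
The exons were identical at the other 105 positions (62.9%). They shared only the first 2 bases at the 5′ end, and all of the last 10 bases at the 3′ end.

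The intron bases before each exon are shown because SF3B1 acts at this site. Capitals mark the AG of the annotated acceptor.
before exon 9 (chr15:72203189-72203228): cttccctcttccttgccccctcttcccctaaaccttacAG
before exon 10 (chr15:72202621-72202660): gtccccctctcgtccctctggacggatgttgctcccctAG
Of these 40 bases, 33 (82.5%) were pyrimidines before exon 9 and 28 before exon 10. Neither window held an AG besides the annotated one. The bases across the ends of the exons are shown for the shared stretch that precedes the donors, whose GT is in capitals.
end of exon 9 (chr15:72203012-72203041): gttctgacggagtctggcagGTagggccct
end of exon 10 (chr15:72202444-72202473): gtcctcaccaagtctggcagGTaggaggcg

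The libraries held 49338071 to 77750812 uniquely mapped junction reads, and 211347 to 470900 junctions were listed in each. The labels do not say whether the replicates are separate cultures, and p-values here measure only the spread between these libraries, which may be technical. The substituted base itself is not seen in junction counts. The genotype labels were therefore set against cryptic acceptors 10 to 30 nt upstream of annotated ones in 9 genes known to respond to it. Their median use was 5.88% and 54.7% in the libraries labelled K700E day 8, against 2.01% and 53.3% in those labelled wild type day 8. At day 4 it was 54.8% and 51.1% in K700E, against 1.70% and 3.83% in wild type. The libraries labelled K700E day 8 replicate 1 and wild type day 8 replicate 2 thus went against their labels. All libraries kept their labelled groups. Most fitted differences that rest on day 8 are also given without them, while the exact tests over libraries used every library.

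Exon 10 was the main choice in every library, and exon 9 was a minor form of at most a few percent. At the exon 8 donor, where a read shows which exon follows, exon 9 took 2.34% (95% Wilson interval 1.99% to 2.75%) and 0.702% (0.542% to 0.908%) of exon 9 and 10 reads in the libraries labelled K700E day 8. In those labelled wild type day 8 it took 2.80% (2.53% to 3.09%) and 1.16% (0.913% to 1.48%). At day 4 the shares were 1.67% (1.27% to 2.20%) and 2.22% (1.61% to 3.06%) in K700E, against 2.76% (2.34% to 3.26%) and 3.12% (2.67% to 3.66%) in wild type. Both K700E libraries were below both wild-type libraries at day 4, whereas at day 8 the groups overlapped and replicate 2 was the lower library of each genotype. The counts behind these shares were 143 and 57 exon 9 reads against 5967 and 8065 exon 10 reads in K700E day 8, and 364 and 65 against 12650 and 5526 in wild type day 8. They were 49 and 36 against 2881 and 1583 in K700E day 4, and 138 and 148 against 4856 and 4590 in wild type day 4. The intervals cover counting error only.

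**Figure D1:**
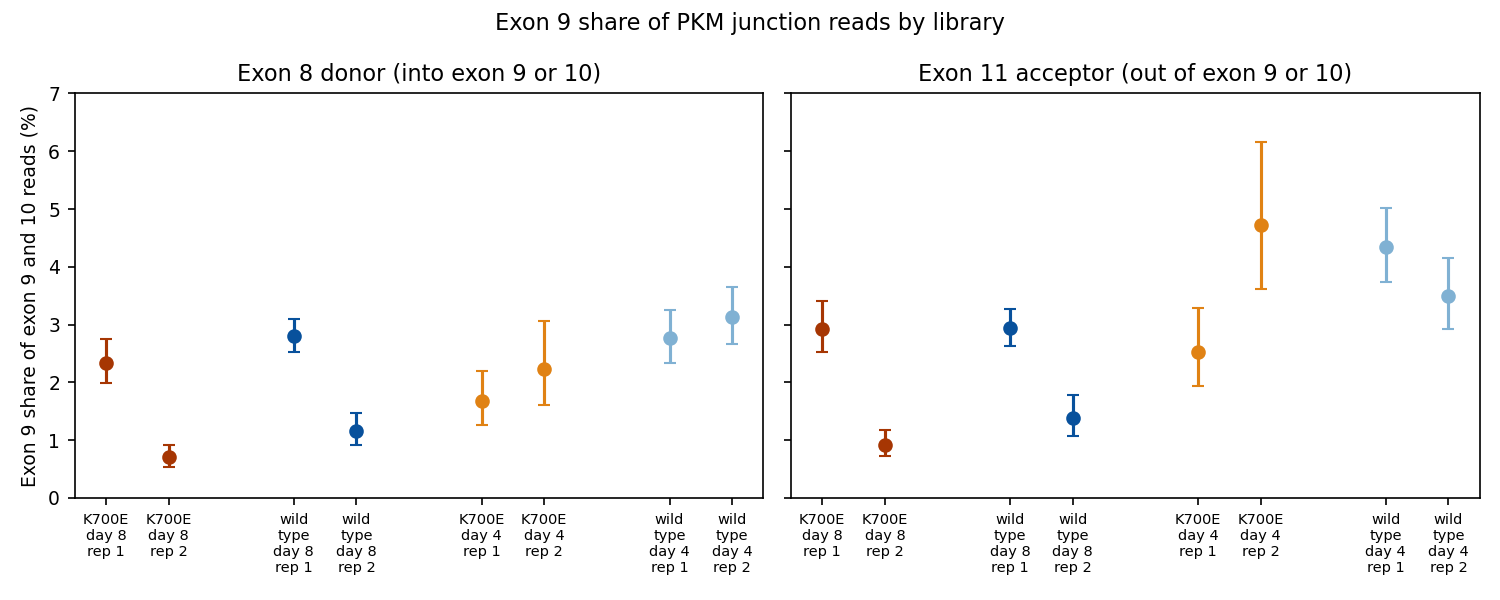
Share of exon 9 among exon 9 and 10 junction reads (%) in each library, at the exon 8 donor (left) and at the exon 11 acceptor (right); points are libraries and bars are 95% Wilson intervals. All libraries lie between 0.702% and 4.73%, and K700E day 8 replicate 2 and wild type day 8 replicate 2 are the lowest on both sides.

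The low shares at day 8 stood beside high cryptic acceptor use. The library labelled K700E day 8 replicate 2 combined a donor-side share of 0.702% with a median cryptic use of 54.7%, and the library labelled wild type day 8 replicate 2 combined 1.16% with 53.3%. The replicate 1 libraries of day 8 combined 2.34% with 5.88% in K700E, and 2.80% with 2.01% in wild type. In each genotype at day 8 the library with more cryptic use had the lower exon 9 share, and at day 4 this held between the genotypes on the donor side. It did not hold within wild type at day 4, where replicate 2 had the higher cryptic use (3.83% against 1.70%) and the higher share (3.12% against 2.76%). Whether cryptic acceptor use bears on the exon 9 share was not tested.

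At the exon 11 acceptor, where a read shows which exon precedes, the shares were 2.93% and 0.922% in K700E day 8, against 2.93% and 1.39% in wild type day 8. At day 4 they were 2.53% and 4.73% in K700E, against 4.34% and 3.49% in wild type. On this side the K700E and wild-type libraries overlapped at both days. K700E day 4 replicate 2, with a median cryptic use of 51.1%, was below both wild-type day 4 libraries at the donor and was the highest of all 8 libraries at the acceptor, with 36 and 51 exon 9 reads behind these values. Pooled over both sides, exon 9 took 2.62% and 0.806% in K700E day 8 and 2.86% and 1.26% in wild type day 8. Pooled shares at day 4 were 2.03% and 3.22% in K700E, against 3.45% and 3.28% in wild type.

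The sides also differed in multi-mapped reads, which the unique counts leave out. The exon 9 to exon 11 junction had 871 multi-mapped reads beside 1009 unique ones, so that 46.3% of its reads were multi-mapped, against 1.86% for the exon 8 to exon 9 junction. The exon 10 to exon 11 junction had 876 multi-mapped reads beside 37763 unique ones. In 7 of 8 libraries these junctions had exactly the same number of multi-mapped reads, and in wild type day 4 replicate 1 they had 55 and 60. A read that reaches no further than the last 10 bases of either exon has the same sequence in both, as the sequences above show. Adding near-equal counts to both junctions raises a low share whichever exon was used, so the shares that follow do not measure exon choice. With multi-mapped reads added to both junctions the acceptor-side share of exon 9 was 5.65% and 3.27% in K700E day 8, against 5.18% and 3.42% in wild type day 8. The day 4 values were then 3.95% and 6.03% in K700E, against 5.59% and 4.61% in wild type. The donor side had 19 multi-mapped reads at exon 9 and 20 at exon 10 over all libraries, and its shares moved little when they were added.

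No change in exon 9 use was called between the genotypes. Each junction was tested with edgeR's quasi-likelihood test as its reads against the other reads of the site it shares, in a fit over all junctions. Calls were made at an adjusted p (Benjamini-Hochberg) under 0.05, with a difference of 5 percentage points or more. Exon 9 stayed under 5% on unique reads in every library, so a decrease could not meet the second condition, and the comparison rests on the interval and the adjusted p. On the donor side exon 9 use differed by -0.46 points between K700E and wild type at day 8, a log2 change in odds of -0.50 (95% interval -3.18 to 2.18, adjusted p 1.00 by edgeR). The day 4 difference was -0.98 points, a log2 change in odds of -0.62 (SE 0.44, 95% interval -1.62 to 0.38, adjusted p 0.626 by edgeR). The acceptor side gave a log2 change in odds of -0.30 (95% interval -2.75 to 2.15) at day 8 and of -0.17 (95% interval -1.27 to 0.93) at day 4. These intervals are wide, and a fall in the odds of exon 9 by a log2 unit at day 4 lies within them. Without the library labelled K700E day 8 replicate 1 the donor-side change at day 8 was -1.38, and without the library labelled wild type day 8 replicate 2 it was -1.12. Without K700E day 8 replicate 2 it was 0.37, and without wild type day 8 replicate 1 it was 0.17, so its sign depended on single libraries. On the acceptor side at day 8 the change was -1.15 without the library labelled K700E day 8 replicate 1 and -0.82 without the library labelled wild type day 8 replicate 2.

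The pooled exon 9 share was also compared over libraries with an exact two-sided permutation test. K700E averaged 1.71% ± 1.29 and wild type 2.06% ± 1.13 at day 8 (SD, n = 2 each), with an exact p of 0.667. At day 4 the means were 2.63% ± 0.842 in K700E and 3.37% ± 0.122 in wild type (SD, n = 2 each), with an exact p of 0.333, the smallest that 2 against 2 libraries can give. Over both days the difference was -0.541 points with 4 libraries of each genotype (exact permutation p 0.429, smallest possible 0.0286). In the fit of all 8 libraries the mean genotype difference on the donor side was -0.56 in log2 odds (95% interval -1.93 to 0.81) and the interaction with day 0.11 (95% interval -2.57 to 2.79). Leaving out the library labelled K700E day 8 replicate 1 gave -1.001 for the mean and -0.77 for the interaction, and leaving out the library labelled wild type day 8 replicate 2 gave -0.87 and -0.50.

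**Figure D2:**
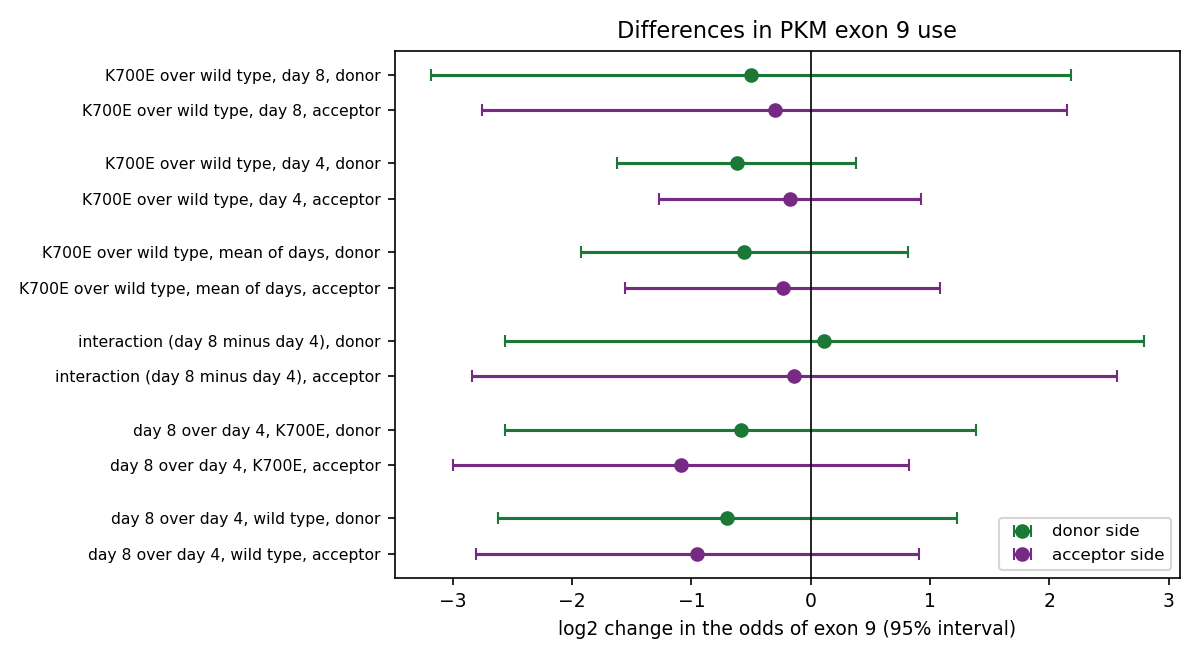
Log2 change in the odds of exon 9 (points) with 95% intervals (bars) for 6 contrasts, at the exon 8 donor (green) and at the exon 11 acceptor (purple). Every interval includes 0, and the day 4 genotype contrasts have the narrowest ones, -1.62 to 0.38 and -1.27 to 0.93.

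Day 8 and day 4 did not differ in exon 9 use beyond the spread between libraries. On the donor side the log2 change in odds, day 8 over day 4, was -0.59 (95% interval -2.56 to 1.39) in K700E and -0.70 (95% interval -2.62 to 1.22) in wild type. The acceptor side gave -1.09 (95% interval -2.996 to 0.82) and -0.95 (95% interval -2.81 to 0.90). Over all libraries the pooled share averaged 1.887% at day 8 and 2.997% at day 4 (n = 4 each), with an exact permutation p of 0.143. Without the library labelled K700E day 8 replicate 1 the donor-side change in K700E was -1.47, and without wild type day 8 replicate 2 that in wild type was -0.07. On the acceptor side the same values were -1.94 and -0.41.

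None of the PKM junctions was called in any of these contrasts. Minor junctions, such as the one that skips both exons 9 and 10, held too small a share of their site to lose the points needed for a call. A decrease in them could not be called, so for these the result rests on the adjusted p. The lowest adjusted p of a PKM junction in these edgeR fits was 0.146. It belonged to the skip of both exons at the acceptor, day 8 over day 4 in wild type. At shared donors 3 PKM junctions were tested at day 8 and 7 at day 4, and at shared acceptors 9 and 10. With every library kept, the background was as low in most fits. At donors edgeR called 0 of 63775 junctions at day 8 (0%), with 3284 at an unadjusted p under 0.05, and 288 of 70418 at day 4 (0.409%). At acceptors it called 0 of 59877 at day 8 (0%) and 0 of 65156 at day 4 (0%), with 3213 and 7156 at an unadjusted p under 0.05. The limma diffSplice test called 0 at either side at day 8, and 292 donor-side and 81 acceptor-side junctions at day 4, none of them in PKM. In the 8-library fit edgeR called 0 of 95636 junctions at donors (0%) and 0 of 87639 at acceptors (0%) in the mean, interaction and day contrasts, with 3052 to 16426 at an unadjusted p under 0.05. These counts of 0 depended on the libraries kept. Without the library labelled wild type day 8 replicate 2, junctions were called at donors and at acceptors, at day 8 and between the days in wild type. Leaving it out leaves a single library in its group, whose spread is then not measured.

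Skipping of both exons was rare. The junction from exon 8 to exon 11, the only unannotated PKM junction with 10 or more unique reads in at least 2 libraries, had 22 and 7 reads in K700E day 8, against 8 and 2 in wild type day 8. Day 4 counts were 9 and 2 in K700E, against 39 and 17 in wild type. As a share of exon 8 donor reads this was 0.359% and 0.0861% in K700E day 8, against 0.0614% and 0.0358% in wild type day 8, and 0.306% and 0.123% in K700E day 4, against 0.774% and 0.357% in wild type day 4. The K700E libraries were thus above the wild-type ones at day 8 and below them at day 4, without overlap at either day. At day 8 the highest and the lowest value came from the libraries that went against their labels, K700E replicate 1 and wild type replicate 2. The log2 change in odds at day 8 was 1.86 on the donor side (95% interval -0.94 to 4.67), 0.80 without K700E replicate 1 and 1.66 without wild type replicate 2. The interaction of genotype and day was 3.15 in log2 odds on the donor side (SE 1.40, 95% interval -0.09 to 6.38, adjusted p 0.613 by edgeR). This interaction was 2.05 without K700E day 8 replicate 1 and 2.89 without wild type day 8 replicate 2. Neither day passed the test (donor-side adjusted p 0.509 by edgeR at day 4). At these shares a decrease could not reach the difference in points needed for a call, so this rests on the adjusted p. A message with both exons was rarer still: the junction from exon 9 to exon 10 had 5 reads in wild type day 4 replicate 2 and 1 read in each K700E day 8 library.

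No read used an acceptor 10 to 30 nt upstream of an annotated PKM acceptor, the range in which K700E is known to open cryptic ones. This held for all 11 acceptors of exons 2 to 12, which together had 496306 reads. At the acceptors of exons 9 and 10 the count was 0 of 47125 reads, 1000 of them at exon 9 and 46125 at exon 10. The bases before these exons, shown above, hold no AG in that range. The count of 0 there was thus fixed by the sequence and does not measure an effect of K700E.

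At the 5′ end, transcripts began mostly with exon 1 in every library. Exon 1 (chr15:72231116-72231206) supplied 96.5% and 96.6% of the reads into exon 2 in K700E day 8, against 96.9% and 95.4% in wild type day 8. At day 4 it supplied 95.3% and 91.5% in K700E, against 94.0% and 94.4% in wild type. All 4 day 8 libraries were above all day 4 libraries (means 96.3% and 93.8%, n = 4 each, exact permutation p 0.0286, the smallest possible), and the genotypes overlapped at each day. An exon that lies just upstream of exon 1 (its donor side begins at position 72231324) supplied 0.938% and 1.48% in K700E day 8, against 1.48% and 1.90% in wild type day 8, and 1.35% and 2.79% in K700E day 4, against 0.782% and 1.18% in wild type day 4. A cassette exon between exons 1 and 2 (chr15:72221168-72221284) supplied 20 and 29 reads in K700E day 8, against 0 and 33 in wild type day 8. Its reads at day 4 numbered 20 and 24 in K700E, against 52 and 65 in wild type, and its share of exon 2 acceptor reads was at most 3.52%.

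Among the other junctions, exon 3 was skipped by 0 and 1 reads in K700E day 8, 0 and 13 in wild type day 8, 0 and 0 in K700E day 4, and 9 and 5 in wild type day 4. The joins between exons 2, 3 and 4 held the lowest unadjusted p of the PKM junctions at day 4 (0.015 at the exon 4 acceptor, adjusted p 0.338 by edgeR). An annotated junction from inside exon 3 to a site just inside the start of exon 5 had 14 to 110 unique and 15 to 367 multi-mapped reads per library. Its longest overhang was 7 nt, against 75 nt at the main PKM junctions, so it rests on very short read ends. Of the 26 annotated junctions, 21 reached 10 reads in a library, and 3 of these, exon 6 to exon 7 and exon 7 to exon 8 among them, have a GC donor. The 44 unannotated junctions carried 291 reads, or 0.0586% of PKM reads, 28 of them were listed in a single library, and 38 had under 10 reads in all.

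The amount of PKM spliced RNA was lowest in K700E at day 4. PKM had 63667 and 81961 annotated junction reads in K700E day 8 and 129717 and 54499 in wild type day 8, or 1290 and 1345 RPM (scaled to all unique junction reads of the library) against 1826 and 890 RPM. The day 4 reads numbered 33294 and 18429 in K700E and 55986 and 59092 in wild type, or 428 and 280 RPM against 919 and 804 RPM. Both K700E libraries were below both wild-type libraries at day 4, by more than the spread within either group, and at day 8 both K700E libraries lay between the wild-type ones. In bulk RNA, fewer cells with the message and less message per cell cannot be told apart.

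**Figure D3:**
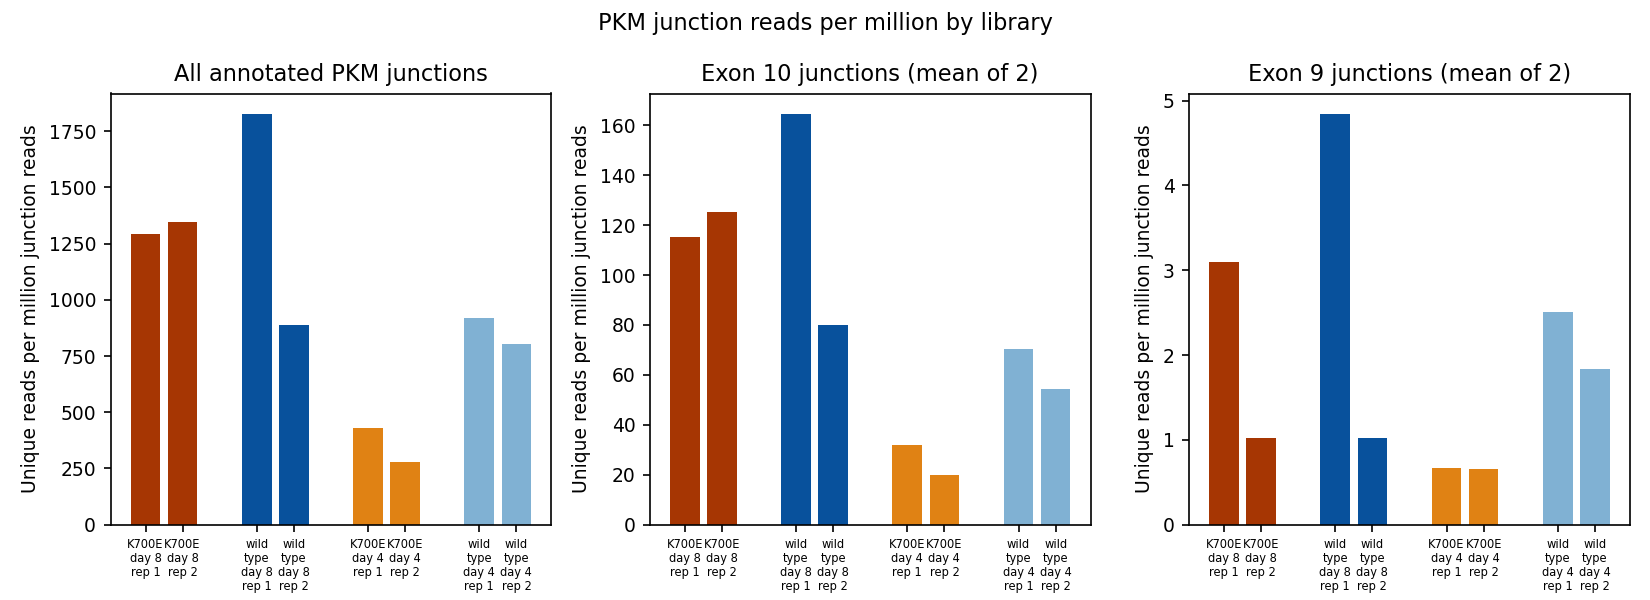
PKM unique reads in RPM in each library: all annotated PKM junctions (left), the mean of the junctions into and out of exon 10 (middle) and the same for exon 9 (right, on its own scale). Each bar is a library; the K700E day 4 libraries are lowest in each panel, at 428 and 280 RPM for the gene.

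Levels of both forms were likewise lowest in K700E at day 4. The junctions of exon 10 averaged 115 and 125 RPM in K700E day 8, against 164 and 79.9 in wild type day 8, and 31.9 and 19.8 in K700E day 4, against 70.3 and 54.1 in wild type day 4. Those of exon 9 averaged 3.10 and 1.02 in K700E day 8, against 4.84 and 1.02 in wild type day 8. At day 4 they averaged 0.662 and 0.660 in K700E, against 2.51 and 1.84 in wild type. The exon 9 level of every K700E day 4 library was under that of every other library, and so was the exon 10 level.

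The PKM gene sum did not pass the test between genotypes at either day in the edgeR fit. At day 8 the log2 change, K700E over wild type, was -0.05 (SE 0.39, 95% interval -1.05 to 0.96, adjusted p 1.00 by edgeR). Without the library labelled K700E day 8 replicate 1 it was -0.05, and without the library labelled wild type day 8 replicate 2 it was -0.47. At day 4 the normalised level was 382 CPM ± 110 in K700E and 1007 CPM ± 71.9 in wild type (SD, n = 2 each), a log2 change of -1.38 (SE 0.21, 95% interval -1.92 to -0.85, adjusted p 0.0661 by edgeR). The background was 74 of 13991 genes called at day 4 (0.529%), and 0 of 13990 at day 8 (0%), where 408 had an unadjusted p under 0.05 and DESeq2 called 20. The day 4 value was called by the DESeq2 Wald test (adjusted p 5.1e-07), which called 1640 genes, and by edgeR without the filter on low counts (adjusted p 1.06e-05). It was not called in the fit of all 8 libraries (adjusted p 0.433 by edgeR), where 0 of 14902 genes were called. Leaving out 1 day 4 library leaves 1 library in a group, whose spread is then not measured, and the call depended on which was left out. The log2 change was -1.71 without K700E replicate 1 and -1.13 without K700E replicate 2. It was -1.31 without wild type replicate 1 and -1.46 without wild type replicate 2. Its log2 change stayed between -1.71 and -1.13 throughout. The interaction of genotype and day was 1.39 (SE 0.49, adjusted p 0.513 by edgeR), in a contrast with 0 of 14902 genes called (0%) and 1371 at an unadjusted p under 0.05. This interaction was 1.40 without the library labelled K700E day 8 replicate 1 and 0.97 without the library labelled wild type day 8 replicate 2.

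PKM rose between the days in K700E. Its log2 change, day 8 over day 4, was 1.80 (SE 0.35, 95% interval 0.97 to 2.63, adjusted p 0.0160 by edgeR), in a contrast in which 1525 of 14902 genes (10.2%) were called higher. Both K700E libraries were higher at day 8, at 1290 and 1345 RPM, against 428 and 280 RPM at day 4. Without the library labelled K700E day 8 replicate 1 the change was 1.79 (adjusted p 0.0433), and with the 4 K700E libraries alone 1.79 (adjusted p 0.0309). The call was lost without K700E day 4 replicate 1 (adjusted p 0.0582), K700E day 4 replicate 2 (0.102) or K700E day 8 replicate 2 (0.0609). In wild type the change was 0.41 (SE 0.34, 95% interval -0.39 to 1.21, adjusted p 0.430 by edgeR), 0.82 without wild type day 8 replicate 2 and -0.22 without wild type day 8 replicate 1.

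The profile of reads along PKM differed between the days. The exon 1 to exon 2 junction had 35.2% and 42.4% of the reads of the exon 5 to exon 6 junction in K700E day 8 and 55.4% and 49.4% in wild type day 8. At day 4 it had 22.5% and 19.1% in K700E and 20.7% and 22.6% in wild type. The days did not overlap (means 45.6% and 21.2%, n = 4 each, exact permutation p 0.0286, the smallest possible), and the genotypes did at day 4 only. The last junction, exon 11 to exon 12, likewise had 66.4% to 74.1% of the exon 5 to exon 6 reads at day 8 and 47.5% to 51.4% at day 4. The part of this profile in the differences between days was not tested.

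**Figure D4:**
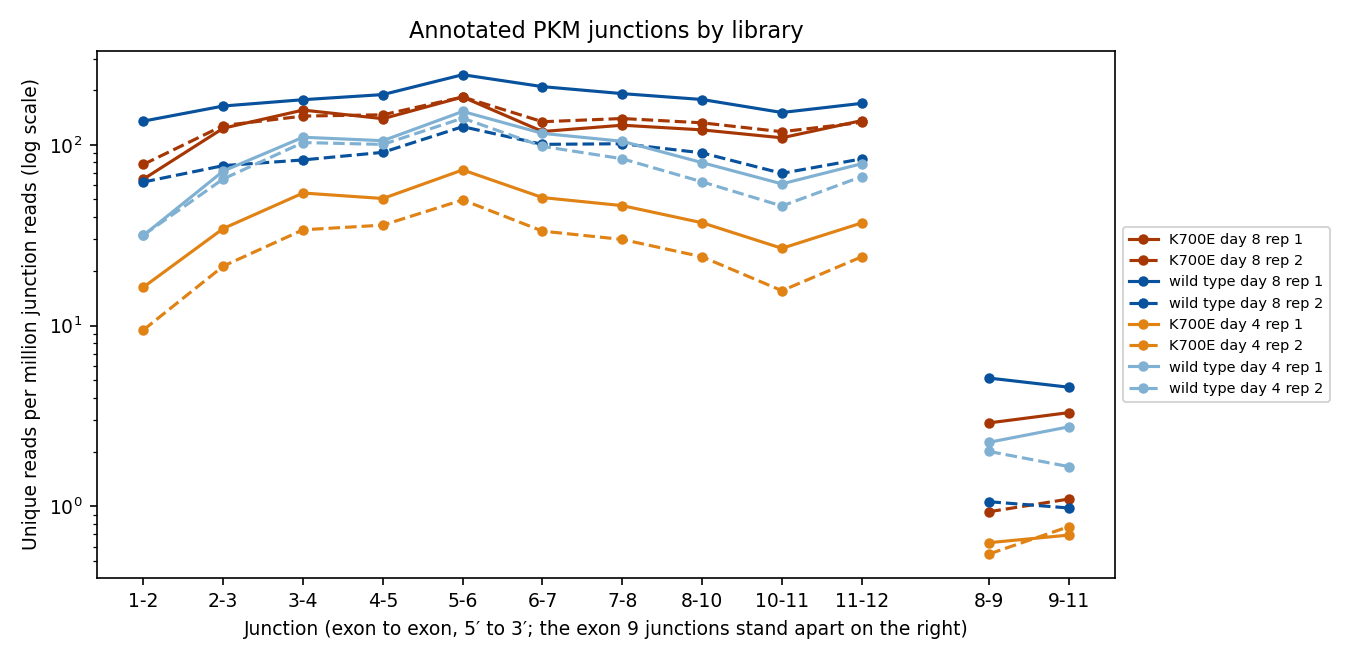
RPM (log scale) of each annotated junction between numbered PKM exons, from 5′ to 3′, with the exon 9 junctions set apart on the right. Lines are libraries, solid for replicate 1 and dashed for replicate 2; exon 5 to exon 6 is the highest junction in every library and exon 9 junctions lie far below those of exon 10.

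Of the 9 regulators of this exon choice in the list, 0 were called between genotypes at either day. Over all genes 0 of 13990 were called at day 8 (0%) and 74 of 13991 at day 4 (0.529%), so this count says little about the regulators. PTBP1, the main repressor of exon 9, was at 567 and 499 CPM in K700E day 8, against 477 and 426 in wild type day 8. At day 4 it was at 457 and 421 CPM in K700E, against 469 and 411 in wild type (log2 change 0.01, SE 0.13, adjusted p 0.975 by edgeR). HNRNPA1, which represses exon 9 beside it, was at 1640 and 1025 CPM in K700E day 8, against 1370 and 1182 in wild type day 8. At day 4 HNRNPA1 was at 1948 and 1814 CPM in K700E, against 3233 and 3105 in wild type (log2 change -0.74, SE 0.10, adjusted p 0.061 by edgeR). Leaving out 1 day 4 library, which leaves 1 library in a group, the HNRNPA1 change ranged from -0.79 to -0.70. Its call depended on which library was left out. HNRNPA2B1 had a log2 change of 0.40 (SE 0.11) at day 4 and of -0.16 (SE 0.22) at day 8. At day 4 SRSF3, a splicing activator of exon 10, had a log2 change of 0.15 (SE 0.14), RBM4, an antagonist of PTBP1, one of -0.39 (SE 0.22), and MYC, a transcription factor that raises the repressors, one of 0.58 (SE 0.39). The MYC change at day 4 was 1.06 without K700E replicate 1 and -0.15 without K700E replicate 2, so its sign depended on a single library. Between the days NEK2, a mitotic kinase that binds HNRNPA1, fell in K700E (log2 change -1.54, SE 0.20, adjusted p 0.00745 by edgeR) and in wild type (-2.51, SE 0.21), and HNRNPA1 fell in wild type (-1.31, SE 0.24, adjusted p 0.0129). The NEK2 change in K700E was -1.40 (adjusted p 0.0247) without the library labelled K700E day 8 replicate 1, and it was not called without K700E day 4 replicate 2 (adjusted p 0.0528). The HNRNPA1 change in wild type was -1.22 (adjusted p 0.0401) without the library labelled wild type day 8 replicate 2, and it was not called without wild type day 4 replicate 1 (adjusted p 0.0866) or replicate 2 (adjusted p 0.109). NEK2 in wild type was not called without wild type day 4 replicate 2 (adjusted p 0.0736). The background was 1298 of 14902 genes lower at day 8 in K700E (8.71%) and 1602 lower in wild type (10.8%).

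Of 19 other glycolysis genes, 5 were lower in K700E than in wild type at day 4 and 0 were higher, against a background of 42 of 13991 genes called lower (0.300%). The 5 were ALDOA, an aldolase (log2 change -1.96, SE 0.14, adjusted p 0.0190 by edgeR), LDHA, a subunit of lactate dehydrogenase (-1.55, SE 0.12), GPI, glucose phosphate isomerase (-1.25, SE 0.12), PGK1, phosphoglycerate kinase (-0.96, SE 0.12), and GAPDH (-0.83, SE 0.10). LDHA, which takes up the pyruvate that PKM makes, was at 894 and 956 CPM in K700E day 4, against 2566 and 2922 in wild type day 4. The log2 change was negative in 18 of 19 genes, against 48.6% of all genes tested, with a median of -0.81 beside 0.02 over all genes. DESeq2 called 11 of the 19 lower, against 861 of 13991 genes called lower. Leaving out 1 day 4 library leaves 1 library in a group, and the number called then depended on which was left out. The changes of the 5 kept their sign in these fits, from -2.05 to -1.88 for ALDOA and from -0.85 to -0.82 for GAPDH. At day 8, 0 of 19 were called, with a median of 0.04, and 0 genes in all were called without the library labelled K700E day 8 replicate 1 or that labelled wild type day 8 replicate 2. Between the days 4 rose in K700E (TPI1, PFKL, ALDOA and PGAM1, a median over the list of 0.23) and 8 fell in wild type (ALDOC, PKLR, LDHA, GPI, PFKM, PGK1, ALDOA and GAPDH, a median of -0.69). Over all genes 10.2% were called higher at day 8 in K700E and 10.8% lower in wild type. Leaving out 1 library leaves 1 library in a group. Both counts then depended on which library was left out, and so did the number called over all genes. The changes of the 4 in K700E and of the 8 in wild type kept their sign in these fits. They ranged from 0.59 to 1.10 for PFKL in K700E and from -6.45 to -5.06 for PKLR in wild type. PKLR, the liver and red cell pyruvate kinase gene, was at 2.89 and 2.72 CPM in K700E day 8, against 1.14 and 0.433 in wild type day 8, and at 14.3 and 3.29 CPM in K700E day 4, against 33.0 and 42.4 in wild type day 4.

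**Figure D5:**
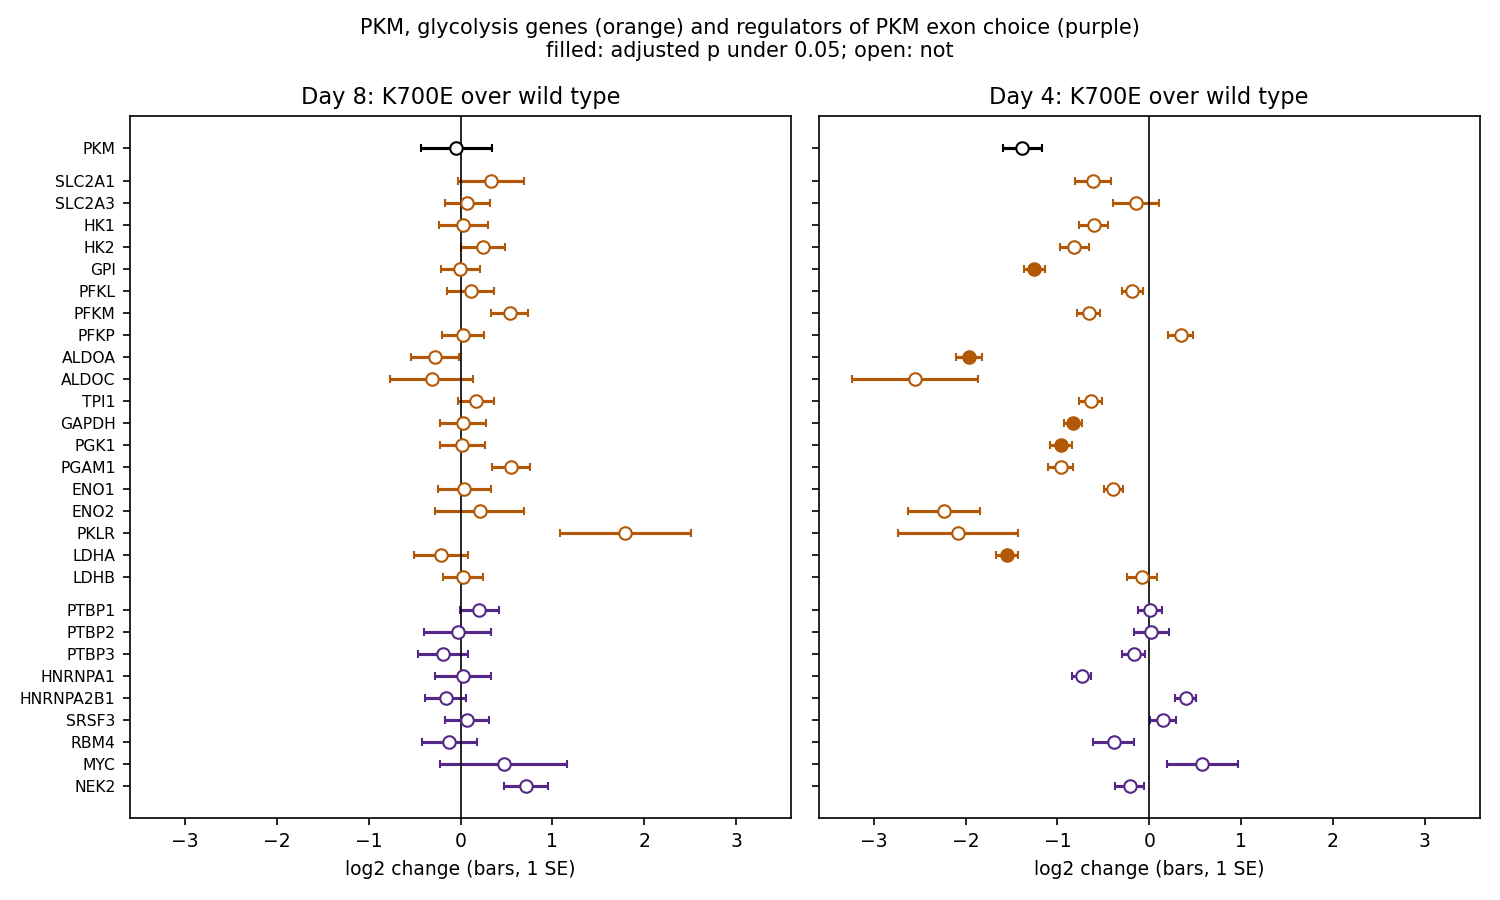
Log2 change of gene sums, K700E over wild type, at day 8 (left) and day 4 (right), for PKM (black), 19 glycolysis genes (orange) and 9 regulators of the exon choice (purple); bars are 1 SE and filled points have an adjusted p under 0.05 in edgeR. At day 4 the filled points are ALDOA, LDHA, GPI, PGK1 and GAPDH, and at day 8 there are none.

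Markers of the tissues in which exon 9 prevails were looked up in all libraries. Of 6 muscle markers, MYOD1 and MYOG were at 0 in every library, and the list summed to 14.8 and 15.7 CPM in K700E day 8, 9.58 and 6.75 in wild type day 8, 7.18 and 1.45 in K700E day 4 and 12.5 and 12.8 in wild type day 4, most of it DES. Of 6 neuron markers, ELAVL4 was at 0 in every library, and the list summed to 1.29 to 11.04 CPM, with SYT1 as its largest part in wild type at day 4. Erythroid markers summed to 170 to 291 CPM, with 5 of 6 at 1 CPM or more in every library. Of the epithelial list EPCAM, KRT8, KRT18 and KRT19 were present and CDH1 and CLDN4 were at or near 0.

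By the same annotation rule 634 mutually exclusive exon pairs in 470 genes had 100 reads per library on average, and 439 of them used both exons at 1% or more. Set beside those 439, the PKM pair was among the more uniform in percentage points. Its pooled exon 9 share spanned 2.65 points over the 8 libraries, and 427 of the 439 pairs spanned more (median 13.0 points). Its genotype difference at day 4 of -0.736 points was exceeded in size by 337 of the 439 pairs. Set beside all 634 pairs PKM stood out less. Of these, 448 spanned more (median 7.72 points) and 355 had a larger difference at day 4. Of all 634 pairs, those of other genes with the most reads were in RPS3, RACK1 and RPS20. The upstream exon of the pair took 42.4% to 51.6%, 40.7% to 47.0% and at most 0.151% of the reads there. The range of a share depends on how far it lies from 0, and PKM exon 9 lies near it. It also depends on depth, which was not matched. Pairs entered at a mean of 100 reads per library, while PKM exon 10 alone had at least 2611 in each library.

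The genes whose level was most like that of PKM over the 8 libraries were ICAM4, TOM1, ATP6V1G1, UBXN6 and ATF5, with Pearson's r of log2(CPM + 1) between 0.974 and 0.989. They were picked as the highest of 8036 genes with at least 10 CPM on average, of which 97 had an r above 0.9, and the libraries share day and genotype. ATF5, a stress-responsive transcription factor, was at 74.2 and 51.1 CPM in K700E day 8, against 56.4 and 20.3 in wild type day 8, and at 8.56 and 3.22 in K700E day 4, against 35.5 and 31.0 in wild type day 4.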

How the data were processed

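The deposited values are counts of uniquely mapped and multi-mapped reads over each splice junction, made by the authors with cutadapt and STAR on hg38, per the submitters' processing notes, and not normalized. STAR was 2.7.0e with a GENCODE 29 index and GENCODE 22 added at mapping, per the file headers. Libraries were strand-specific, per the labels' protocols.

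Junctions were joined over the 8 libraries (860791) and assigned with GENCODE 29. Unique reads over introns of 1 gene gave gene sums; introns of 2 or more genes (4.17% of reads) were left out. Junctions needed 5 unique reads in at least 2 libraries and a site with a mean of 20. edgeR 4.0.16 quasi-likelihood fits in R 4.3.3 (TMM, Benjamini-Hochberg over all features) were the main tests; limma 3.58.1, DESeq2 1.42.0, other filters, read sets and left-out libraries were alternatives. Exact tests used scipy 1.17.1. The steps were tested on simulated data. PKM, the gene lists and the tests were chosen with earlier results of these data known. Genes were named by a rule: junctions with 10 reads, called pathway genes and a fixed few, the 5 genes most like PKM and the 3 largest other exon pairs.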

Additional observations from a re-analysis of the deposited data

How the results depend on the processing

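Of the exon 9 results, none was called under any alternative tried. On unique reads a decrease in exon 9 could not reach the difference in points needed for a call. The absence of a called decrease was thus fixed there and does not measure how robust the result is. Exact permutation tests of 2 against 2 libraries could not pass either, as their smallest possible p was 0.333. Leaving out each library in turn, the log2 change in odds stayed negative on the donor side at day 4 (-0.82 to -0.40), in the mean of both days (-1.001 to -0.12) and in the day difference in wild type (-1.35 to -0.07), and on the acceptor side in the day difference in K700E (-1.94 to -0.25) and in wild type (-1.51 to -0.41). For the others the direction depended on single libraries. The log2 change in odds, leaving out each library in turn, ranged from -1.38 to 0.37 at day 8 on the donor side and from -1.15 to 0.54 on the acceptor side, and from -0.64 to 0.30 at day 4 on the acceptor side. The mean of both days ranged from -0.66 to 0.18 on the acceptor side, the interaction from -0.77 to 0.98 on the donor side and from -0.99 to 0.70 on the acceptor side, and the day difference in K700E from -1.47 to 0.28 on the donor side. With multi-mapped reads added, the day 8 change on the acceptor side was 0.029. The permutation differences there were then 0.160 points at day 8 and 0.0265 points over both days. Near-equal counts were added to both exons here, so these values cannot decide the direction of exon choice.

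The PKM gene sum at day 4 was called with the DESeq2 Wald test (-1.38), without the filter on low counts (-1.39) and with the replicate number as a block (-1.41, adjusted p 0.0437 by edgeR), and ranged from -1.71 to -1.13 without 1 library. At day 8 it was 0.049 with the block and 0.071 with the block in the 8-library fit, and ranged from -0.47 to 0.58 without 1 library. The day difference ranged from 1.53 to 2.10 in K700E and from -0.22 to 0.82 in wild type. The replicate numbers showed no pairing beyond a correlation of deviations of 0.153 at day 4 and 0.264 at day 8, with only 2 numbers, and the samples share only a number. The number of glycolysis genes lower in K700E at day 4 was 11 with DESeq2, where 861 of 13991 genes were called lower. It was 3 with DESeq2 size factors (40 of 13991 genes lower) and 14 without the filter (805 of 19722 genes lower). It was 0 in the 8-library fits with and without the block, which called 0 of 14902 genes in all. That 0 was thus fixed and says nothing about these genes in particular. Without 1 library the number depended on the library left out. PTBP1 at day 4 was -0.0035 and -0.0015 in the 8-library fits without and with the block and ranged from -0.084 to 0.10, and MYC from -0.15 to 1.06, without 1 library. The number of genes called at day 4 was 126 with the block, 1640 with DESeq2 and 1567 without the filter. The causes were not tested. The low number of exon 9 reads limits the exon 9 share at day 4, where K700E had 36 to 54 unique reads per library and side.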
